A study of Mus musculus with 8 samples.

Results

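The 2 control groups of a mouse liver injury study were compared with each other, across all genes. The Yap controls were Yap1 floxed homozygotes that received an AAV8 virus carrying GFP, and the Ctgf controls were Ctgf floxed homozygotes, for which the labels name no virus. Each group had 2 libraries, so 4 of the 8 libraries of the study entered the comparison. The labels put each library in its group. All groups came from adult mice with a C57BL/6 background by label, aged 8 to 10 weeks by the sample labels and 8 weeks by the series' design text. The feed in every group was the Lieber-DeCarli liquid diet, at 1% ethanol for 2 days and then at 2% for 10 days. Carbon tetrachloride (CCl4) was then injected once into the peritoneum (1 µl/g), and whole liver was taken 2 days later. The other 4 libraries were compared between the same lines, where gene deletion and the iCre virus also differ. They were 2 Yap1 knockouts, in which an AAV8 virus carrying iCre deletes Yap1 in hepatocytes, and 2 libraries labelled Ctgf conditional knockout, with a Cre driver not given in the sources used here.

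Carbon tetrachloride is turned into a reactive radical by cytochrome P450 enzymes of the hepatocytes around the central vein, and those cells die. In the days that follow, macrophages clear debris, hepatic stellate cells take on a contractile, collagen-making state, and surviving hepatocytes and other cells divide. Yap1 encodes a transcriptional coactivator held in check by the Hippo kinases, and Ctgf encodes a matrix-associated protein that YAP induces. Neither gene is deleted in the control groups, so the comparison asks how alike the 2 sets of control livers were at the same labelled time after injury. Line, virus and place in the library numbering all differed between the groups and cannot be told apart. A TruSeq kit and a KAPA kit are both named in the labels, with the kit of each library not given in the sources used here. Nothing in the labels ties replicates to separate mice, so p-values measure the spread between these libraries, which may be technical.

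The tissue label was borne out by Alb, which encodes albumin, at 32036 and 55345 CPM in Yap controls 1 and 2 and 37334 and 35393 CPM in Ctgf controls 1 and 2. CPM are read counts normalised to the library size, after TMM scaling. Total counts ran from 26904021 to 33488609 per library. The replicates of the Ctgf controls were closer to each other (r = 0.993 across genes, on log2 CPM) than those of the Yap controls (r = 0.933). Yap control 2 stood apart on the second principal component, which held 22.1% of the variance. Genes of the exocrine pancreas made up 2.17% of its counts, against 0.00046% to 0.0044% in the other libraries. The summed level of the 31 pancreas genes in the table was 3.90 and 24064 CPM in the Yap controls and 7.40 and 5.0 CPM in the Ctgf controls, and Prss1 was at 0 in all 4. Transcript length also moved with this library: from the shortest to the longest of 4 equal groups of genes, the median log2 difference of Yap control 1 over Yap control 2 went from -0.49 to 0.54. Between the lines the same medians went from 0.28 to -0.11. The part of pancreas RNA or transcript length in the results was not tested. Counts or medians over most gene lists are given with and without Yap control 2. A gene's value without it is given where the call was lost or the fold change moved by over 1.5 times. A fit without Yap control 2 leaves a single library in its group, so the spread comes from the other groups only. Adjusted p-values and calls of that fit therefore carry no variation between Yap controls.

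Yap and Ctgf controls differed widely. By edgeR's quasi-likelihood F test over 13999 genes, 178 were higher and 155 lower in the Yap controls at an adjusted p under 0.05, the threshold used throughout. These are 2.38% of the tested genes, 1.27% higher and 1.11% lower. With upper quartile scaling, which moved the median of all genes by 0.14 on the log2 scale, the split became 244 higher and 114 lower. The median absolute log2 fold change of the 333 genes was 2.13, and 181 of them differed by over 4-fold. In all 333 the 2 Yap libraries lay on one side of the 2 Ctgf libraries, as they did in 7441 genes, or 53.2%, of all those tested. Without Yap control 2, 557 genes were higher and 455 lower, and 295 of the 333 genes passed again with the same sign. The direction held in all 333, which their separation made near certain, with a median absolute log2 fold change of 2.18. As that fit called more genes of any kind than the main fit, higher list counts in it are not stronger results.

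The number of calls depended on single libraries. In each fit with a library left out, the group left with a single library added nothing to the estimate of the spread. Leaving out either Ctgf control left 0 genes past the threshold, although 1338 and 1519 had an unadjusted p under 0.05 without Ctgf control 1 and 2. Leaving out either Yap1 knockout, whose spread the fit shares, left 4 genes higher and 2 lower. Leaving out Yap control 1 gave 1934 higher and 1765 lower. A fit of the 4 control libraries alone called 0 genes by edgeR, with 2509 at an unadjusted p under 0.05. In each of these fits all 333 genes kept their direction, as was near certain for genes whose control groups did not overlap.

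**Figure D1:**
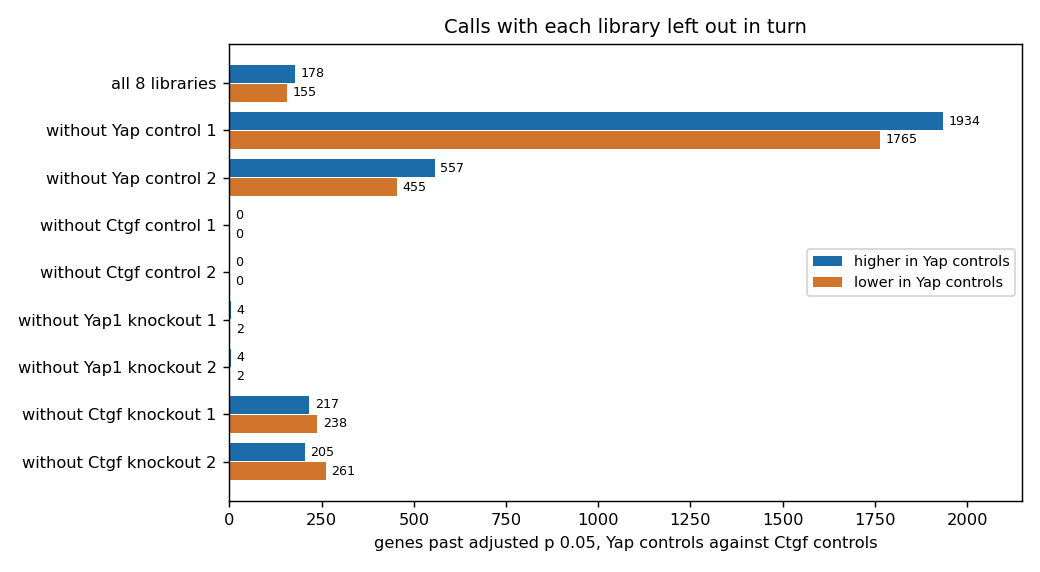
Number of genes past an adjusted p of 0.05 (horizontal axis) between Yap controls and Ctgf controls, higher (blue) and lower (orange), in the fit of all 8 libraries and with each library left out in turn. The counts fell from 178 and 155 to 0 and 0 without either Ctgf control, and rose to 1934 and 1765 without Yap control 1.

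Most of these genes also differed between the lines in libraries that the control comparison does not use, apart from the shared estimate of the spread. Yap1 deletion, the iCre virus and the Ctgf knockout label go with that comparison, so it is not a repeat of the control comparison. Between Yap1 knockouts and the libraries labelled Ctgf knockout, 798 genes were higher and 445 lower, or 8.88% of those tested, with 5.7% higher and 3.18% lower. Of the 333 genes that differed between controls, 324 had the same sign between knockouts and 244 passed the threshold there in the same direction, 145 higher and 99 lower. These 244 are 73.3% of the control calls and 19.6% of the knockout calls. The number shared depended on the fit and on single libraries, with 0 when each comparison was fitted on its own 4 libraries. Across all tested genes the 2 sets of log2 fold changes had a Pearson r of 0.657, given as a description over genes measured in the same libraries and fitted together. 1 gene passed in opposite directions: Tiparp, which encodes a poly-ADP-ribosyltransferase induced by the aryl hydrocarbon receptor, singled out after its values were seen. Its level was 23.8 and 19.8 CPM in the Yap controls, 58.7 and 82.1 in the Ctgf controls, then 112 and 128 CPM in Yap1 knockouts 1 and 2 and 61.7 and 32.3 CPM in Ctgf knockouts 1 and 2. Its control difference was -1.69 on the log2 scale (adjusted p = 0.0469), and -1.57 with adjusted p = 0.0721 without Yap control 2. The direct test of whether the line difference itself differed between controls and knockouts called 0 genes by edgeR, with 1242 at an unadjusted p under 0.05, and 166 by DESeq2.

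**Figure D2:**
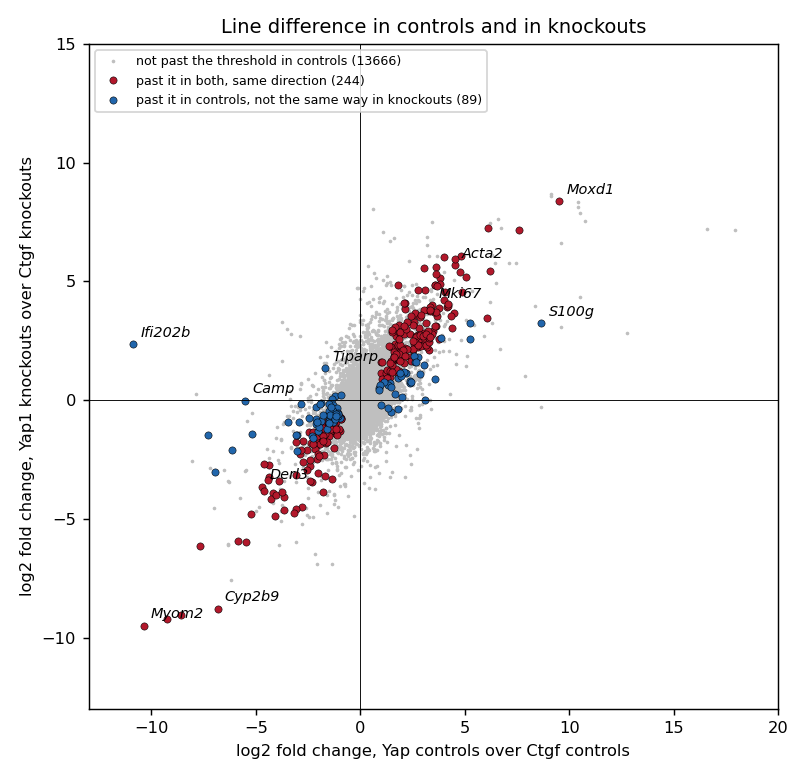
Log2 fold change of every tested gene between Yap and Ctgf controls (horizontal axis) and between Yap1 and Ctgf knockouts (vertical axis). The 244 genes past the threshold in both in the same direction (red) lie in the lower left and upper right, and the other control calls (blue) include Tiparp and Ifi202b with opposite signs. Values of genes at or near 0 in a line depend on the prior count of the fit.

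Genes of stellate cells and fibrosis, a list that also holds genes of the quiescent state, stood mostly higher in the Yap controls. Of 30 such genes, 10 rose and 0 fell, or 33.3% against the 1.27% of all tested genes that were higher, 27 had a log2 fold change above 0, and the list's median log2 fold change was 1.56, against 0.04 over all tested genes. Medians given for other lists are likewise of log2 fold changes. Without Yap control 2, 15 rose and the median was 1.87. In the knockouts 19 rose, with a median of 1.98.

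Acta2 (chr19:34241090-34255590, GRCm38), the smooth muscle actin that marks activated stellate cells, was at 75.0 and 72.0 CPM in Yap controls 1 and 2 and at 2.87 and 3.53 CPM in Ctgf controls 1 and 2. The groups lay far apart, with replicates of each close together. The log2 fold change was 4.52 with an SE of 0.28 (adjusted p = 0.00205), and 4.54 (adjusted p = 0.00428) without Yap control 2. The Yap1 knockouts had 123 and 125 CPM and the Ctgf knockouts 1.81 and 3.02. Tagln, which encodes an actin-binding protein of contractile cells, was at 89.9 and 62.0 CPM against 6.53 and 5.29, a log2 fold change of 3.68 with an SE of 0.49 (adjusted p = 0.0234). Des, the intermediate filament desmin of stellate and muscle cells, was at 34.2 and 37.6 CPM against 6.69 and 5.74 (log2 fold change 2.53, SE 0.27, adjusted p = 0.0210). Outside the list, and named after their values were seen, the smooth muscle genes Myl9, Tpm2 and Myh11 also rose, by log2 fold changes of 3.32, 3.15 and 2.69 (2.93, 2.39 and 1.90 without Yap control 2). All of the genes in this paragraph were higher in both Yap controls than in either Ctgf control.

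The fibril-forming collagens moved the same way. Col1a1 (chr11:94936224-94953042, GRCm38) and Col1a2 encode the chains of type I collagen, the main fibre of scar. Col1a1 was at 198 and 147 CPM in the Yap controls and 21.4 and 15.4 CPM in the Ctgf controls, with a log2 fold change of 3.23 with an SE of 0.28 (adjusted p = 0.0104) that became 3.42 without Yap control 2. Col1a2 was at 149 and 108 CPM against 23.7 and 19.2 (log2 fold change 2.58, adjusted p = 0.0210). Type III collagen, Col3a1, was at 356 and 199 CPM against 51.8 and 45.8 (log2 fold change 2.51, adjusted p = 0.0210). Both Yap controls were above both Ctgf controls for each of the 3 genes. Lox, the lysyl oxidase that crosslinks collagen, rose by 3.04 on the log2 scale (adjusted p = 0.0191) from 2.10 and 1.56 CPM in the Ctgf controls to 17.8 and 12.2 CPM in the Yap controls. Sparc, a collagen-binding matrix protein, rose by 1.61 on that scale (adjusted p = 0.0384), and the minor fibril collagens Col5a1 and Col5a2 by 2.10 and 2.13. Across all 30 tested genes whose symbols start with Col, 6 rose and 0 fell, against 1.27% of all tested genes that rose. Col6a3 was among the 6, and the rest are also in the stellate list. This family was chosen after its values were seen.

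Other members of the list did not pass. Lrat, the enzyme that stores retinol in quiescent stellate cells, was at 43.9 and 17.3 CPM in the Yap controls and 22.1 and 32.4 CPM in the Ctgf controls (log2 fold change 0.17, adjusted p = 0.856), with overlapping groups. Pdgfrb, the platelet-derived growth factor receptor of stellate cells, was at 63.2 and 28.7 against 16.4 and 15.8 CPM (log2 fold change 1.52, adjusted p = 0.0653). Timp1, an inhibitor of matrix metalloproteinases, was at 28.4 and 27.9 against 8.51 and 3.67 CPM (log2 fold change 2.21, adjusted p = 0.0815). Markers of neighbouring cells stood beside this result as follows. None of 20 sinusoidal endothelial genes passed, with 17 above 0, a median of 0.60 and a summed level of 1298 and 887 CPM in the Yap controls and 625 and 798 CPM in the Ctgf controls. Of the endothelial genes, 4 rose and 0 fell without Yap control 2, at a median of 0.60. The part of endothelial cells in the stellate result was not tested. For 8 mesothelial genes the median was -0.63, with 0 past the threshold, and for 19 hepatocyte identity genes it was 0.18, also with 0. These medians without Yap control 2 were -0.42 and 0.00, with 0 mesothelial genes and 1 hepatocyte gene past the threshold, the latter lower. In whole liver, more cells of a type and more RNA per cell cannot be told apart.

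Genes of mitosis were higher in the Yap controls too. Of 30 genes, 16 rose, or 53.3% against 1.27% of all tested genes, and all 30 had a log2 fold change above 0, with a median of 2.86. Without Yap control 2, 23 rose and the median was 3.12. Between knockouts 20 rose, with a median of 2.78. The summed level of the 30 genes was 207 and 107 CPM in the Yap controls and 24.4 and 29.7 CPM in the Ctgf controls, so Yap control 1 had the highest level and both Yap controls lay above both Ctgf controls.

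Mki67 (chr7:135689784-135716361, GRCm38), the nuclear antigen of dividing cells, was at 36.8 and 11.4 CPM in Yap controls 1 and 2 and 1.75 and 2.76 CPM in Ctgf controls 1 and 2. The groups did not overlap, although the Yap controls differed more from each other than the Ctgf controls did. The log2 fold change was 3.42 with an SE of 0.58 (adjusted p = 0.0354), and 4.02 (adjusted p = 0.0150) without Yap control 2. Top2a, the topoisomerase that untangles chromosomes, was at 27.5 and 10.7 against 1.63 and 2.16 CPM (log2 fold change 3.33, SE 0.51, adjusted p = 0.0322). Cdk1, the kinase that drives entry into mitosis, was at 9.79 and 6.67 against 1.02 and 1.31 CPM (log2 fold change 2.82, SE 0.45, adjusted p = 0.0332). Birc5, which encodes survivin, a subunit of the chromosomal passenger complex, was at 4.42 and 3.46 against 0.287 and 0.284 CPM (log2 fold change 3.77, adjusted p = 0.0234). Aurkb, the kinase of the same complex, was at 6.19 and 3.58 against 0.414 and 0.341 CPM (log2 fold change 3.69, adjusted p = 0.0265). Cenpe, a kinetochore motor, was at 7.30 and 3.0 against 0.510 and 0.427 CPM (log2 fold change 3.46, adjusted p = 0.0332), and Ccna2, a cyclin of S phase and mitosis, at 10.3 and 5.89 against 0.924 and 1.05 CPM (log2 fold change 3.03, adjusted p = 0.0278). The lower Yap value was in Yap control 2 for each of these 7 genes, and it still exceeded both Ctgf controls. Kif14, Kif15, Kif18b and Kif4 rose among 34 tested kinesin genes, of which 0 fell, against 1.27% of all tested genes that rose. The kinesin family was chosen after its values were seen.

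Mitotic genes are known to share 2 short promoter elements. The letters of the cell cycle genes homology region (CHR), TTTGAA, are read by the DREAM and MuvB complexes, and the CCAAT box by NF-Y. Promoter windows from RefSeq (GRCm38.p6, 250 bases before to 50 after a transcription start) were matched by symbol for 10812 of the 13999 tested genes and searched on both strands. TTTGAA lay in a window of 18 of the 24 mitosis genes that had one, against 14.8% of the matched tested genes and 17.9% of all 32851 windows. CCAAT lay in 19 of the 24, against 42.6% of the matched tested genes and 37.4% of all windows. A match is a description of letters and not of binding. The 250 bases before the start of 2 mitosis genes that rose are shown because both carry several of each element. Capitals mark TTTGAA and CCAAT or their reverse complements, and the reading is 5′ to 3′ on the gene's strand.
Top2a (chr11:99024190-99024439, minus strand): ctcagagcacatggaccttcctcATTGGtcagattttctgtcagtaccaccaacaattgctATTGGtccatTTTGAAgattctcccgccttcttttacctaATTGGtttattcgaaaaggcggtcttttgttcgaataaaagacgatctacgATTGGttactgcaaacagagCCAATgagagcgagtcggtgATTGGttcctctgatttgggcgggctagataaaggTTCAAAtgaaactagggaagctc
Cdk1 (chr10:69352913-69353162, minus strand): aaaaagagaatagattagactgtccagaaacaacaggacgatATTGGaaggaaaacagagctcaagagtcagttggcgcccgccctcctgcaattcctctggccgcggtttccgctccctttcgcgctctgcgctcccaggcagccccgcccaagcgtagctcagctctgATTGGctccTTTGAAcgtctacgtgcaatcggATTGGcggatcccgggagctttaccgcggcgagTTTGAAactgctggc

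Some genes of DNA replication and entry into S phase were higher in the Yap controls. Of 30 genes, 3 rose, or 10% against 1.27% of all tested genes, and 0 fell, and the median was 0.56 (0.71 without Yap control 2, where 7 rose and 1 fell). Uhrf1, which carries DNA methylation through replication, was at 11.2 and 6.09 CPM against 1.37 and 1.62 (log2 fold change 2.53, adjusted p = 0.0332). Mcm5, a subunit of the replicative helicase, was at 22.5 and 11.6 against 4.11 and 5.17 CPM (log2 fold change 1.88, adjusted p = 0.0474), and Tk1, thymidine kinase, at 8.66 and 6.71 against 1.82 and 2.30 CPM (log2 fold change 1.90, adjusted p = 0.0493). Pclaf, which encodes a PCNA-binding factor, was at 7.38 and 3.38 CPM in the Yap controls and 0.255 and 0.199 CPM in the Ctgf controls (log2 fold change 4.55, adjusted p = 0.0234). In each of the 4 genes both Yap controls lay above both Ctgf controls.

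**Figure D3:**
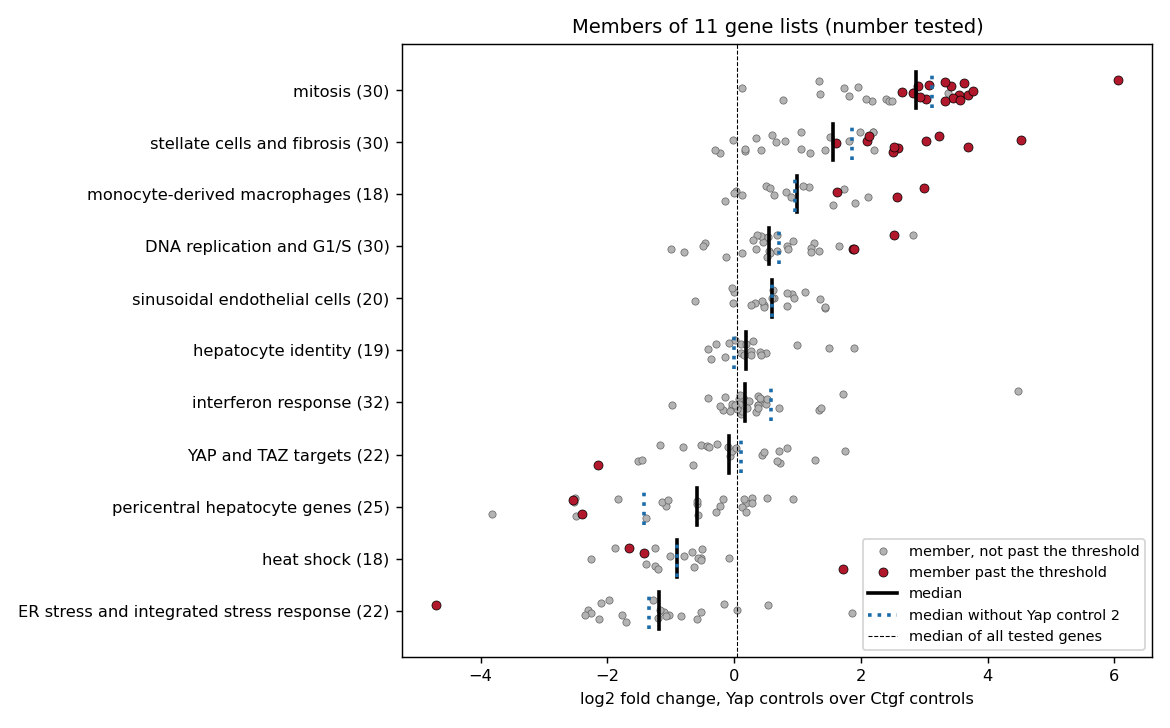
Log2 fold change between Yap and Ctgf controls (horizontal axis) for the tested members of 11 gene lists, with their medians with (black) and without (dotted blue) Yap control 2. Red points passed an adjusted p of 0.05. Mitosis and stellate lists lie to the right of the median of all tested genes (dashed), and the heat shock and ER stress lists to the left.

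Macrophage genes were partly higher in the Yap controls. Of 18 genes of monocyte-derived macrophages, 3 rose, or 16.7% against 1.27% of all tested genes, and 0 fell. In this list 17 genes were above 0 and the median was 1.00. The summed level was 3137 and 5016 CPM in the Yap controls and 1595 and 1558 CPM in the Ctgf controls. Gpnmb, a lysosomal glycoprotein of lipid-laden macrophages, was at 169 and 304 CPM against 42.3 and 16.9 (log2 fold change 3.0, SE 0.56, adjusted p = 0.0440). Lgals3, which encodes galectin-3, was at 432 and 1121 CPM against 129 and 131 (log2 fold change 2.58, SE 0.49, adjusted p = 0.0451). Fcgr1, a high-affinity Fc receptor, was at 31.5 and 34.7 CPM against 9.98 and 11.5 (log2 fold change 1.62, adjusted p = 0.04998). Without Yap control 2 only Lgals3 passed, at a log2 fold change of 1.72 (adjusted p = 0.0433), with Gpnmb at adjusted p = 0.0575 and Fcgr1 at adjusted p = 0.0596. The pan-macrophage gene Adgre1 was at 56.0 and 32.8 CPM against 32.0 and 49.3 (log2 fold change 0.13, adjusted p = 0.855), and 0 of 11 Kupffer cell genes passed with or without Yap control 2, with medians of 0.14 and -0.04. Pf4, a chemokine of platelets and megakaryocytes that macrophages also make, was at 19.2 and 17.1 CPM against 1.28 and 1.79 and rose by 3.56 on the log2 scale (adjusted p = 0.0210).

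Lymphoid and granulocyte lists held 1 call at most. None of 20 T and NK cell genes, 11 B and plasma cell genes or 10 dendritic cell genes passed, with medians of -0.58, -0.77 and 0.05. Their medians without Yap control 2 were -0.57, -0.41 and 0.36, with 1 B and plasma cell gene lower and 1 dendritic cell gene higher. Among 20 neutrophil genes, Camp alone passed, or 5% against 2.38% of all tested genes. The list's median was -0.12, and -0.58 without Yap control 2. Camp encodes an antimicrobial peptide stored in granules, and its level was 0.0277 and 0.0412 CPM in the Yap controls, at the level of single reads, and 1.69 and 1.76 CPM in the Ctgf controls (adjusted p = 0.0332). None of 32 interferon response genes passed, at a median of 0.18 (0.58 without Yap control 2). Rsad2, an antiviral enzyme induced by interferon, showed the spread within the Yap controls, with 156 and 2223 CPM there and 46.7 and 60.0 CPM in the Ctgf controls (log2 fold change 4.48, adjusted p = 0.0850, and log2 fold change 1.55 without Yap control 2).

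Several liver enzymes and transporters were lower in the Yap controls. The Cyp2c family of cytochrome P450 enzymes had 13 tested members, of which 5 fell and 0 rose, with a median log2 fold change of -2.01. Among all tested genes 1.11% fell, and the family was chosen after its values were seen. Cyp2c37 (chr19:39992424-40012243, GRCm38), an enzyme of pericentral hepatocytes, was at 1.36 and 3.05 CPM in Yap controls 1 and 2 and 13.1 and 12.4 CPM in Ctgf controls 1 and 2, a log2 fold change of -2.55 with an SE of 0.45 (adjusted p = 0.0384) that became -3.23 without Yap control 2. Cyp2c50 was at 5.64 and 5.84 CPM against 29.7 and 30.9 (log2 fold change -2.40, adjusted p = 0.0460), a call lost without Yap control 2 (adjusted p = 0.0688). In the Yap1 knockouts Cyp2c37 was at 1.35 and 2.15 CPM and Cyp2c50 at 1.78 and 3.50 CPM. Cyp2c69 was listed at 0 in both Yap controls and at 1.85 and 1.22 CPM in the Ctgf controls, which is at least 12.4-fold lower against a floor of 3 counts per library. Cyp2b9, a P450 of the steroid- and drug-inducible Cyp2b family, was at 0.0277 and 0.165 CPM against 12.5 and 7.90 (log2 fold change -6.83, SE 1.00, adjusted p = 0.0283, and log2 fold change -8.34 without Yap control 2). Reads of near-identical P450 genes may have been split or dropped in counting, so single members are uncertain.

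Pericentral genes as a list were mostly below 0, at 17 of 25, with 2 lower and 0 higher (the Cyp2c genes above) and a median of -0.58. The 2 genes are 8% of the list, against 1.11% of all tested genes that were lower. Without Yap control 2, 8 fell and the median was -1.41. Cyp2e1, the P450 that activates CCl4 and oxidizes ethanol, differed between the Yap replicates. It was at 58.8 and 394 CPM in Yap controls 1 and 2 and 839.7 and 769 CPM in the Ctgf controls (log2 fold change -1.83, SE 0.72, adjusted p = 0.188), and the log2 fold change was -3.78 (adjusted p = 0.0150) without Yap control 2. Adh4, an alcohol dehydrogenase that also oxidizes retinol, was at 19.2 and 24.5 against 67.1 and 76.9 CPM and had a log2 fold change of -1.72 with an SE of 0.22 (adjusted p = 0.0234). Aldh1a1, a retinaldehyde dehydrogenase, was at 141 and 263 against 523 and 532 CPM (log2 fold change -1.39, adjusted p = 0.0668). Among the 13 ethanol metabolism genes, Adh4 alone passed, or 7.69% against 2.38% of all tested genes. The list's median was -0.20, and -0.56 without Yap control 2. Periportal genes (20) and hepatocyte identity genes (19) had 0 past the threshold, with medians of 0.33 and 0.18. Of the periportal genes, 1 fell without Yap control 2, at a median of 0.01.

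Abcc4 and 4 members of the Slc22 family were among the transporter genes lower in the Yap controls. Abcc4, an export pump of the basolateral hepatocyte membrane for bile acids and conjugates, was at 27.2 and 34.4 CPM in the Yap controls and 129.7 and 130.3 CPM in the Ctgf controls. It was the 1 gene past the threshold among 24 of bile acid synthesis and transport, or 4.17% against 2.38% of all tested genes. The list's median was -0.53, and -0.75 without Yap control 2. The log2 fold change of Abcc4 was -2.08 with an SE of 0.20 (adjusted p = 0.0177), -2.26 without Yap control 2 and -1.91 between knockouts. Of 14 tested genes of the Slc22 organic ion transporter family, 4 fell and 0 rose, against 1.11% of all tested genes that fell. In the family, which was chosen after its values were seen, 6 were above 0. Slc22a26 was at 0.277 and 0.206 CPM against 9.91 and 8.96 (log2 fold change -5.24, SE 0.43, adjusted p = 0.00952), and Slc22a28 at 0.166 and 0.123 against 1.94 and 1.85 CPM (log2 fold change -3.65, adjusted p = 0.0384). Slc22a27 was listed at 0 in both Yap controls and at 0.829 and 0.825 CPM in the Ctgf controls, at least 6.69-fold lower. Both Ctgf controls lay above both Yap controls for each of these genes. Ces2a, a carboxylesterase, was at 8.27 and 10.8 CPM against 47.0 and 45.9 (log2 fold change -2.29, adjusted p = 0.0234).

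Major urinary protein genes, a tandem family of secreted pheromone carriers made by hepatocytes, were mostly above 0. Of 18 tested, 5 rose and 0 fell, against 1.27% of all tested genes that rose. In the family, which was chosen after its values were seen, 17 were above 0 and the median was 3.35. Mup7 was at 389 and 122 CPM in the Yap controls and 11.3 and 7.39 CPM in the Ctgf controls (log2 fold change 4.78, SE 0.56, adjusted p = 0.0210, and log2 fold change 5.38 without Yap control 2), with 354 and 299 CPM in the Yap1 knockouts and 7.24 and 8.46 CPM in the Ctgf knockouts. The summed level of all 18 was less separated, at 2676 and 2880 CPM in the Yap controls and 2347 and 1559 CPM in the Ctgf controls, and reached 4335 CPM in the library labelled Ctgf knockout 2. Copies of this family are nearly identical, so the assignment of reads to single genes is uncertain.

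Mup genes, Cyp4a12a, Cyp4a12b and Moxd1 are known to be higher in male mouse liver, and Cyp2b9, Cyp2c40, Cyp2c69 and Slc22a26 in female liver. Moxd1, which encodes a monooxygenase-like protein, was at 2.21 and 3.75 CPM in the Yap controls and listed at 0 in both Ctgf controls, at least 31.2-fold higher. Cyp4a12b, a fatty acid hydroxylase, was at 4.73 and 11.5 CPM against 0.542 and 0.227 (log2 fold change 4.39, adjusted p = 0.0334, and log2 fold change 3.62 without Yap control 2), and Cyp4a12a at 10.1 and 22.5 against 3.03 and 1.73 CPM (log2 fold change 2.77, adjusted p = 0.0384, and log2 fold change 2.08 without Yap control 2). The Y-linked gene Ddx3y was at 114 and 68.9 CPM in the Yap controls and 144 and 107 CPM in the Ctgf controls, 121 and 134 CPM in the Yap1 knockouts and 147 and 102 CPM in the Ctgf knockouts. Calls in the sex-biased lists were few in number. They were 15% of male-biased and 18.2% of female-biased tested genes, against 2.38% of all tested genes. Of 20 male-biased genes 3 rose and 0 fell, with a median of 0.56 (0.17 without Yap control 2, where 3 rose and 1 fell). Of 11 tested female-biased genes 2 fell and 0 rose, while the median had the other sign, at 0.86 (-0.22 without Yap control 2, where 3 fell).

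**Figure D4:**
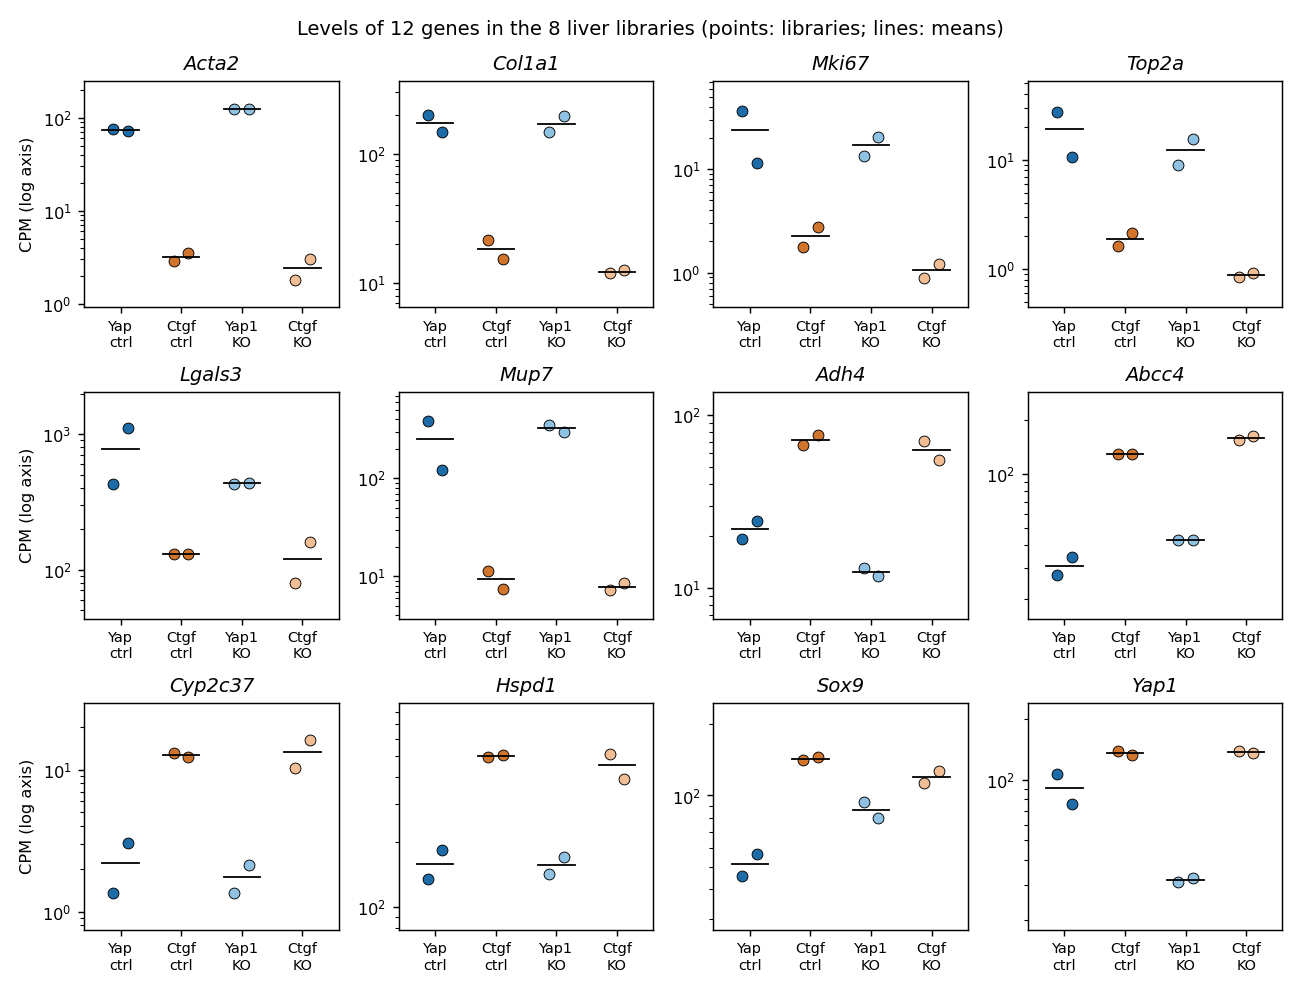
Level of 12 genes in CPM (vertical log axes) in the 2 libraries of each of 4 groups: Yap controls, Ctgf controls, Yap1 knockouts (KO) and Ctgf knockouts. Points are libraries and lines are group means. Acta2, Col1a1, Mki67, Top2a, Lgals3 and Mup7 are higher in both Yap groups, Adh4, Abcc4, Cyp2c37 and Hspd1 are lower in both, and Yap1 is at 31.0 and 32.5 CPM in its knockouts.

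Most chaperone and protein folding genes had lower mean levels in the Yap controls. Of the heat shock genes 16.7% passed in either direction, and of the endoplasmic reticulum stress genes 4.55%, against 2.38% of all tested genes. Of 18 heat shock genes, 2 fell and 1 rose, 17 were below 0 and the median was -0.90 (-0.90 without Yap control 2, where 3 fell and 1 rose, and -1.31 between knockouts). Hspd1, the mitochondrial chaperonin, was at 134 and 183 CPM in the Yap controls and 497 and 505 CPM in the Ctgf controls (log2 fold change -1.66, SE 0.26, adjusted p = 0.0322). Hsp90aa1, the inducible cytosolic Hsp90, was at 108 and 83.6 against 262 and 251 CPM (log2 fold change -1.42, adjusted p = 0.0495), a call lost without Yap control 2 (adjusted p = 0.0669). Cryab, a small heat shock protein abundant in muscle and also made by stellate cells, was the member that rose, from 2.96 and 3.75 CPM in the Ctgf controls to 11.7 and 10.3 CPM in the Yap controls (log2 fold change 1.71, adjusted p = 0.0332).

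The endoplasmic reticulum (ER) stress list held 22 genes, of which 19 were below 0 and 1 passed, at a median of -1.18 (-1.35 without Yap control 2, where 3 fell). The summed level was 6406 and 7873 CPM in the Yap controls and 23555 and 20351 CPM in the Ctgf controls. Derl3, which helps to move misfolded proteins out of the ER, was at 1.6 and 4.77 CPM in the Yap controls and 106 and 56.4 CPM in the Ctgf controls, a log2 fold change of -4.70 with an SE of 0.83 (adjusted p = 0.0384), and -5.67 without Yap control 2. Hspa5, the ER chaperone BiP, was at 1369.9 and 1840.0 CPM against 8365 and 7462 and did not pass (log2 fold change -2.30, SE 0.56, adjusted p = 0.0759). Pdia4, a disulfide isomerase, was at 239.5 and 222 CPM against 1119.9 and 894 (log2 fold change -2.13, adjusted p = 0.0630), and Hyou1, an ER chaperone, at 409 and 325 against 1252 and 1148 CPM (log2 fold change -1.71, adjusted p = 0.0634). Levels of these genes were below both Ctgf controls in both Yap controls. The library labelled Ctgf knockout 2 lay nearer the Yap libraries than Ctgf knockout 1 did, with Hspa5 at 10895 and 3157 CPM in Ctgf knockouts 1 and 2.

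Many ER chaperone genes carry the ER stress element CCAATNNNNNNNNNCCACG, read by NF-Y and ATF6, in which the leading CCAAT is itself a CCAAT box. This element lay in a promoter window of 6 of the 20 matched genes of the list, against 0.166% of the matched tested genes and 0.119% of all windows. The 250 bases before the start are shown for the BiP gene and for Derl3, the member that fell, with the element or its reverse complement in capitals.
Hspa5 (chr2:34771840-34772089, plus strand): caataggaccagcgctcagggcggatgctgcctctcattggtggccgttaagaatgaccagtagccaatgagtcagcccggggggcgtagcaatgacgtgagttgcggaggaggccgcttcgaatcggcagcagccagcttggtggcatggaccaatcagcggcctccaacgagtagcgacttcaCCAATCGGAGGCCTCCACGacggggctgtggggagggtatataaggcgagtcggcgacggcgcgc
Derl3 (chr10:75893148-75893397, plus strand): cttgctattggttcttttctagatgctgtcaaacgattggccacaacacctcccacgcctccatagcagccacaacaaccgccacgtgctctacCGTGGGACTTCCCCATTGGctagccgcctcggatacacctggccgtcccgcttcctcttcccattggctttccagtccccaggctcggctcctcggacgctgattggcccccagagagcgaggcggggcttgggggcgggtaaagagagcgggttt

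Fosl1 and Dusp1, immediate early genes, were lower in the Yap controls. They are 9.09% of the tested genes of that list, against 1.11% of all tested genes that were lower. Fosl1, an AP-1 subunit, was at 15.7 and 19.6 CPM against 76.0 and 73.6 (log2 fold change -2.08, adjusted p = 0.0427, and adjusted p = 0.0504 without Yap control 2), and Dusp1, a phosphatase that switches off MAP kinases, at 138 and 139.7 against 301 and 345 CPM (log2 fold change -1.22, adjusted p = 0.0436). These were the only calls among 22 immediate early genes, of which 10 were above 0, at a median of -0.18 (-0.45 without Yap control 2, where 3 fell). Other genes with large differences follow. Sprr1a, a cornified envelope protein also made by stressed cells outside skin, was at 39.5 and 126 CPM in Yap controls 1 and 2 and 1324 and 1376 CPM in Ctgf controls 1 and 2 (log2 fold change -4.03, SE 0.78, adjusted p = 0.0460, and log2 fold change -5.10 without Yap control 2). Gprc5a, a retinoic acid-induced receptor, was at 1.47 and 2.80 against 31.6 and 71.3 CPM (log2 fold change -4.61, adjusted p = 0.0249), and Sema3e, a secreted guidance factor, at 2.54 and 1.07 against 38.3 and 40.9 CPM (log2 fold change -4.42, adjusted p = 0.0377, and adjusted p = 0.0635 without Yap control 2). Gadd45a, a DNA damage response gene and reported YAP target, was at 8.16 and 11.6 against 48.8 and 38.2 CPM (log2 fold change -2.14, adjusted p = 0.0494), with adjusted p = 0.0568 without Yap control 2. Epha2, an ephrin receptor, was at 38.2 and 26.6 against 137 and 148 CPM (log2 fold change -2.13, adjusted p = 0.0450, and adjusted p = 0.0744 without Yap control 2). Sox9, a transcription factor of bile duct cells and injured hepatocytes, was at 45.8 and 56.6 CPM against 141 and 145 (log2 fold change -1.48, SE 0.20, adjusted p = 0.0249), the only one of 17 biliary genes to pass. That is 5.88% of the list, against 2.38% of all tested genes. The list's median had the other sign, at 1.67 (0.18 without Yap control 2).

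In metabolism the calls were few. Acacb, the acetyl-CoA carboxylase that restrains fatty acid oxidation, was higher, at 99.5 and 93.6 CPM against 24.6 and 30.1 (log2 fold change 1.82, SE 0.29, adjusted p = 0.0332). It passed alone among 20 fatty acid synthesis genes, or 5% against 2.38% of all tested genes. The median of those 20 was 0.28, and 0.22 without Yap control 2. Ppp1r3c, which targets a phosphatase to glycogen, was lower, at 11.1 and 13.6 CPM against 52.1 and 32.4 (log2 fold change -1.78, adjusted p = 0.0332). Cbr1, a carbonyl reductase, was at 104 and 167 CPM against 41.7 and 44 (log2 fold change 1.66, adjusted p = 0.0441). None of 25 cholesterol synthesis genes, 30 PPAR-alpha and fatty acid oxidation genes, 24 amino acid and urea cycle genes, 20 clock genes or 26 acute phase genes passed. Their medians were -0.28, 0.53, 0.26, -0.07 and 0.10. These became, without Yap control 2, -0.60, -0.14, -0.36, -0.01 and -0.48, so those of fatty acid oxidation, amino acid and acute phase genes changed sign. In that fit 4 cholesterol, 2 fatty acid oxidation, 1 amino acid, 1 clock and 4 acute phase genes fell, and 0 rose. More genes of any kind were called in that fit than in the main fit. None of 49 cytosolic ribosomal protein genes or 36 nuclear respiratory chain genes passed in the main fit. Their medians were 0.28 and 0.46, and became -0.22 and -0.09 without Yap control 2.

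The floxed genes themselves did not pass. Yap1 (chr9:7931999-8004596, GRCm38) was at 107 and 76.1 CPM in the Yap controls and 139.5 and 132 CPM in the Ctgf controls (log2 fold change -0.57, SE 0.21, adjusted p = 0.169), and at 31.0 and 32.5 CPM in the Yap1 knockouts. Ctgf (chr10:24595442-24598683, GRCm38) was at 96.8 and 50.1 CPM against 28.8 and 32.1 (log2 fold change 1.27, SE 0.70, adjusted p = 0.315). It was at 8.02 and 49.2 CPM in the libraries labelled Ctgf knockout 1 and 2, so the second of them was not below the Ctgf controls. Cyr61, a CCN family member and YAP target, was at 39.2 and 21.0 CPM against 80.7 and 91.1 (log2 fold change -1.51, SE 0.33, adjusted p = 0.0591). Of 22 YAP and TAZ target genes, Gadd45a alone passed, or 4.55% against 2.38% of all tested genes. The median was -0.08 (0.11 without Yap control 2). Of 27 Hippo pathway and TEAD genes 0 passed, at a median of -0.13, and without Yap control 2 there were 3 that rose, at a median of 0.16.

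Floxed alleles can carry flanking sequence of the line they were made in, so genes near the 2 loci were counted. Within 10 Mb of Yap1, 0 of 47 tested genes passed. Within the same distance of Ctgf, 4 of 67 passed, or 5.97%, against 2.38% of all genes. They were Moxd1 and E030030I06Rik, which were higher in the Yap controls, and Themis and Frk, which were lower. Within 2, 5 and 20 Mb of Ctgf, 1 of 17, 3 of 39 and 5 of 150 passed, or 5.88%, 7.69% and 3.33%. Within 20 Mb of Yap1, 1 of 128 passed, or 0.78%. The part of flanking sequence in these differences was not tested. E030030I06Rik was at 2.68 and 5.19 CPM against 0.128 and 0.284 (log2 fold change 4.21, adjusted p = 0.0253). Frk, a Src-family kinase of epithelia, was at 9.65 and 10.3 CPM against 52.7 and 46.7 (log2 fold change -2.32, adjusted p = 0.0434), with adjusted p = 0.0628 without Yap control 2. Themis, a T cell signalling gene, was at 0.166 and 0.370 against 2.01 and 1.56 CPM (log2 fold change -2.76, adjusted p = 0.0478, and log2 fold change -3.40 without Yap control 2).

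Some genes were present in one set of libraries and at or near 0 in the other. Myom2, which encodes the muscle protein myomesin-2, was listed at 0 in both Yap controls and both Yap1 knockouts, while the Ctgf controls had 3.25 and 7.56 CPM and the Ctgf knockouts 3.41 and 2.48 CPM. Its control level was at least 43.8-fold lower in the Yap line. Ifi44l, an interferon-induced gene, was likewise listed at 0 in all 4 Yap libraries and at 2.07 and 2.93 CPM in the Ctgf controls, at least 20.2-fold lower. Ifi202b (chr1:173962568-173982744, GRCm38), an interferon-inducible gene of the Ifi200 cluster that differs between inbred strains, had another pattern. It was listed at 0 in both Yap controls and at 7.49 and 7.76 CPM in the Ctgf controls, at least 61.8-fold lower, but also at 0 in both Ctgf knockouts, with 0 and 0.0346 CPM in the Yap1 knockouts. The Ctgf controls were thus the 2 libraries with a clear level of this gene. Nnt, a mitochondrial transhydrogenase known to be mutated in C57BL/6J mice, was at 84.0 and 74.7 CPM against 55.8 and 53.7 (log2 fold change 0.54, adjusted p = 0.379). Of 11 tested strain-variable genes, Ifi202b alone passed, or 9.09% against 2.38% of all tested genes.

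Among the other genes with the largest differences, S100g, a vitamin D-regulated calcium-binding protein, was at 18.1 and 33.5 CPM in the Yap controls and 0 and 0.114 CPM in the Ctgf controls (adjusted p = 0.0360). Lrrc14b, a leucine-rich repeat gene, was at 35.6 and 128 against 2.55 and 1.68 CPM (log2 fold change 5.27, SE 0.94, adjusted p = 0.0395, and log2 fold change 4.07 without Yap control 2). Muc2, the main secreted mucin of the gut, was at 1.83 and 5.47 against 0.128 and 0.0853 CPM (log2 fold change 5.05, adjusted p = 0.0332). It passed alone among 9 tested genes of gut and gallbladder epithelium, or 11.1% against 2.38% of all tested genes. The median of those 9 was 3.30, and 0 without Yap control 2. The summed level of the 14 such genes in the table was 34.9 and 721 CPM in the Yap controls and 46.5 and 51.3 CPM in the Ctgf controls, so it was high in Yap control 2 only. Without that library Muc2 still differed by 4.06 on the log2 scale (adjusted p = 0.0310). Lower in the Yap controls were Aloxe3, an epidermal lipoxygenase, at 2.49 and 3.66 against 54.9 and 73.0 CPM (log2 fold change -4.38, adjusted p = 0.0332), and Dusp9, a MAP kinase phosphatase, at 0.415 and 0.247 against 6.02 and 8.13 CPM (log2 fold change -4.37, adjusted p = 0.0322). Slc4a11, a membrane transporter, was at 0.719 and 0.412 against 13.2 and 9.18 CPM (log2 fold change -4.27, adjusted p = 0.0436, and adjusted p = 0.0791 without Yap control 2).

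Of the 333 control calls, 88 did not pass between knockouts, and 80 of these had the same sign there. Genes that did not separate the knockouts the same way, and had at least 5 CPM in a control group, include Ifi202b, Gadd45a, Epha2 and Cbr1, described above, and 6 others. Gdf10, a TGF-beta family ligand, was at 13.2 and 12.9 CPM in the Yap controls and 3.57 and 2.99 CPM in the Ctgf controls (log2 fold change 2.00, adjusted p = 0.0384), and had a log2 fold change of 0.15 (adjusted p = 0.816) between knockouts. Paqr7, a membrane progestin receptor, was at 49.1 and 36.5 against 10.9 and 13.6 CPM (log2 fold change 1.80, adjusted p = 0.0265), and had a log2 fold change of -0.37 (adjusted p = 0.385) between knockouts. Tjp3, a tight junction protein, was at 28.6 and 29.1 against 9.69 and 11.3 CPM (log2 fold change 1.46, adjusted p = 0.0339), and had a log2 fold change of -0.52 (adjusted p = 0.209) between knockouts. Tnfaip8l1, a member of the TNFAIP8 family, was at 21.0 and 25.9 against 8.89 and 9.84 CPM (log2 fold change 1.32, adjusted p = 0.0338), and had a log2 fold change of -0.33 (adjusted p = 0.367) between knockouts. Slc25a24, a mitochondrial carrier, was at 15.1 and 12.4 against 78.2 and 75.0 CPM (log2 fold change -2.47, adjusted p = 0.0351, and adjusted p = 0.0575 without Yap control 2), and had a log2 fold change of -0.75 (adjusted p = 0.263) between knockouts. Ppif, the cyclophilin of the mitochondrial pore, was at 42.2 and 82.3 against 181 and 300.5 CPM (log2 fold change -1.95, adjusted p = 0.0482), and had a log2 fold change of -0.16 (adjusted p = 0.829) between knockouts. No difference between these effects passed the direct test by edgeR given above.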

How the data were processed

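Whole liver RNA was sequenced in 8 mouse libraries, 2 in each of 4 groups, and groups were taken from the sample labels. The deposited values were counts of reads per gene that the authors made with HTSeq 0.6.1 after alignment with STAR 2.6.0a to mm10 (GRCm38), with bcl2fastq 2.20.0.422 also named, per the submitters' processing notes. With the strand setting of the counting not given in the sources used here, antisense and overlapping genes are uncertain, as are families of near-identical genes. Total counts of 26904021 to 33488609 per library set a floor (3 counts) of 0.083 to 0.123 CPM. Intervals and floors cover counting error only.

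From the counts, 13999 of 22155 genes passed edgeR's filterByExpr and were fitted with edgeR 4.0.16 (R 4.3.3): TMM scaling, 1 fit of the 4 groups, the quasi-likelihood F test and Benjamini-Hochberg adjustment over all tested genes, with an adjusted p under 0.05 as the threshold. The 4 groups share 1 estimate of the spread, with 4 residual degrees of freedom. Contrasts were Yap minus Ctgf controls, Yap minus Ctgf knockouts, and their difference. The fit was tested on simulated data: for the control comparison, on 13811 genes, 28% of 2-fold, 76% of 4-fold and 100% of 8-fold changes were recovered. In addition 8 unchanged genes were called. The simulation gave all groups the same spread and no library that stood apart, unlike the real data, so its rates need not hold here. Gene positions came from GENCODE M21 for 21682 genes and RefSeq for 285; 188 matched neither. Promoters were matched to RefSeq by symbol.

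The comparison, the gene lists and the rule for named genes were chosen with earlier results of these data known. The rule took, in each direction, the 10 largest changes past the threshold with at least 5 CPM in a control group and the same separation in the knockouts, the 5 largest without that separation, in each list the 3 members of smallest p on the median's side, genes past the threshold within 10 Mb of either floxed gene, and a few fixed genes. Mup genes, pancreas genes, predicted genes and antigen receptor segments were left out of the largest changes. Other genes were named, and the Mup, Slc22, Cyp2c, collagen and kinesin families chosen, after their values were seen. The share of calls in such a family is a description only. Lists were described by counts and medians, with no set test. Alternatives were RLE and upper quartile scaling, DESeq2 1.42.0, limma-voom (limma 3.58.1), other filters on low counts, the 4 control libraries alone, a robust fit, a block for the replicate number, and leaving out libraries or pancreas genes. Crossing the replicate numbers was added after the data were seen.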

Additional observations from a re-analysis of the deposited data

How the results depend on the processing

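All 333 genes called between the controls kept their direction in every alternative in which they were tested, 321 of them with a minimum of 1 CPM. The control groups did not overlap in any of the 333, so a kept direction was near certain and adds little. The counts did not hold as well. In fits that leave out a library, a group left with a single library adds nothing to the estimate of the spread. DESeq2 called 845 genes higher and 762 lower between controls, 1343 and 1007 between knockouts, 846 in the same direction in both, and 166 for the difference between the 2 line differences. Among lists it called 8 macrophage, 18 stellate, 27 mitosis and 9 DNA replication genes. A fit of the 4 control libraries alone called 0 higher and 0 lower, hence 0 shared and 0 in every list, with 2509 genes at an unadjusted p under 0.05. With no filter on low counts, 2 genes passed for the difference between line differences, against 0. Without Yap control 2 and the library labelled Ctgf knockout 2 together, 1973 were higher and 2083 lower between controls, 2628 and 2629 between knockouts, 2766 were shared, and 143 passed for the difference, with 5 male-biased, 12 macrophage, 22 stellate, 29 mitosis and 15 DNA replication genes called. RLE scaling, other filters, the robust fit, removal of pancreas genes and limma-voom left 164 to 203 higher and 149 to 186 lower, and upper quartile scaling gave 244 and 114.

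The replicate numbers showed little sign of pairing: deviations of same-numbered libraries correlated by -0.117 between the controls and -0.12 between the knockouts. The titles call each Yap control a control for a numbered Yap1 knockout. Between Yap controls and Yap1 knockouts the correlation was 0.072, and between Ctgf controls and Ctgf knockouts 0.068. The main fit used no pairing. With the replicate block, 109 genes were higher and 110 lower between controls, 156 were shared, and 9 mitosis and 1 DNA replication genes were called. Crossing the numbers within the block, a choice made after seeing the data, gave 119 higher and 121 lower.

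Leaving out 1 library at a time gave 0 to 1934 genes higher and 0 to 1765 lower between controls, 10 to 1889 and 2 to 1573 between knockouts, 0 to 869 shared and 0 to 2092 for the difference between them. List calls ranged from 0 to 5 for male-biased, 0 to 7 for macrophage, 0 to 19 for stellate, 0 to 24 for mitosis and 0 to 7 for DNA replication genes. The upper ends for the control counts came without Yap control 1, except that 7 DNA replication genes were called without Yap control 2. The counts of 0 for the controls came without Ctgf control 1 or 2, and 0 male-biased, macrophage, mitosis and DNA replication genes were also called without either Yap1 knockout. With 2 libraries a group and a biological coefficient of variation of 27.2%, changes of 2-fold were mostly out of reach in the simulated data.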

Other observations

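Between Yap1 knockouts and the libraries labelled Ctgf knockout, 5.7% of all tested genes were higher and 3.18% lower, against 1.27% and 1.11% between controls, so more genes of any kind were called there. Of 22 glycolysis and hypoxia genes, 0 passed between controls and 14 were higher between knockouts. Between controls 15 of them were above 0 and 7 below, at a median of 0.67, against 1.32 between knockouts. Their summed level was 3384 and 3930 CPM in the Yap controls and 2158 and 2554 CPM in the Ctgf controls. Of 20 neutrophil genes, 1 was lower between controls and 10 were higher between knockouts. Of 25 cholesterol synthesis genes, 0 passed between controls and 8 were higher between knockouts. Whether these lists differed between the comparisons was not tested. For single genes, the direct test of that difference called 0 by edgeR at an adjusted p under 0.05, with 1242 at an unadjusted p under 0.05, while DESeq2 called 166.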
